A study of Mus musculus with 4 samples.

Results

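Chromosome 4 of the mouse was profiled from its transcripts in tumor derived breast cancer cells that lacked or kept the kinase gene Pak1. The members were selected on their position and on brightness: 1767 probes that the scanner software flagged as well above background on 2 or more arrays were taken, out of 2405 chromosome 4 probes on the array and 27229 probes of all chromosomes that met the same criterion. They stand for 1374 genes by symbol. Probe positions are those of the array design on mm9. The chromosome was chosen with its shift between the genotypes already known, so its medians and counts are given as a description with no test, and only single probes carry an adjusted p, from limma fitted over all 27229 probes. The criterion on brightness left out 508 chromosome 4 probes bright on no array and 130 bright on 1 array. The 129 probes just inside it, bright on 2 arrays, had a median log2 intensity of 6.97, against 6.75 for the 130 just outside.

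Both groups were cells from mammary tumors of MMTV-Neu mice, in which the mouse mammary tumor virus promoter drives the Neu (Her2) oncogene in mammary epithelium. The Pak1-/- group and the Pak1+/+ group each held 2 samples, from 2 tumors per genotype. All 4 samples had been starved of serum for 3 h and then stimulated with EGF, the epidermal growth factor, for 15 min, so no unstimulated state is shown. The age and strain of the mice are not given in the sources used here. Each group is thus a pair of tumor derived cell populations, and what separates the tumors of one genotype from those of the other cannot be told apart from the genotype. The 4 arrays shared 1 slide and 1 scan, with the Pak1-/- samples at the first 2 positions and the Pak1+/+ samples at the other 2, so position and genotype cannot be told apart either. Between 62.2% and 70.4% of all probes were well above background on an array, and between 64.5% and 74.8% of the chromosome 4 probes, the lowest share of both being on the Pak1+/+ replicate 2 array and the highest on the Pak1-/- replicate 1 array. The part of this difference in the results was not tested.

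The single Pak1 probe (chromosome 7, 105060220 to 105060279) read 12.21 and 12.25 on the Pak1-/- arrays and 12.04 and 12.04 on the Pak1+/+ arrays (log2 intensity; limma adjusted p = 0.07). Whether it lies in the deleted part of the gene is not given in the sources used here, so it does not check the labels, and every direction below is that of the labels. Epithelial markers were bright: the keratin Krt8 read between 18.09 and 18.69, and Epcam between 15.01 and 15.33. Of the 6 epithelial markers, 5 were bright on all 4 arrays, and Krt19 read between 6.94 and 8.13 and was bright on 3. Of the 6 leukocyte markers, 4 were bright on all 4 arrays, among them Cd3e (11.34 to 11.70) and Csf1r (10.57 to 11.00), while Lyz2 was bright on none. Of the 6 fibroblast markers, Col1a1, Col1a2 and Pdgfra were bright on all arrays and Col3a1, Dcn and Lum on none. Of the 6 endothelial markers, Kdr (12.99 to 13.27) and Pecam1 (9.23 to 9.47) were bright on all arrays and Tie1, Tek and Emcn on none. The markers higher in Pak1-/- cells were Cdh1, the epithelial cadherin (1.19, adjusted p = 0.0012), Krt8 (0.57, adjusted p = 0.0029), Krt18 (0.27, adjusted p = 0.027) and Col1a1 (1.12, adjusted p = 0.0051), and Ptprc was lower (−0.45, adjusted p = 0.0056). Their part in the results was not tested. Over the chromosome 4 probes the 2 replicates of a group correlated at r = 0.997 and 0.996, and arrays of different groups at 0.946 to 0.953. With bulk samples, fewer cells of a type and less RNA per cell cannot be told apart.

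Mouse chromosome 4 carries its centromere at the end where positions begin, called proximal here. It is known for the Cdkn2 locus, where Cdkn2a encodes an Ink4 inhibitor of the G1 cyclin-dependent kinases and, in another reading frame, the Arf protein that stabilises p53, and where Cdkn2b encodes a further Ink4 inhibitor. Next to that locus lies the cluster of type I interferon genes, the antiviral cytokines. Near the distal end lie Isg15, a ubiquitin-like protein induced by interferon, and a group of TNF receptor genes. The chromosome also holds Jun, a subunit of the AP-1 transcription factor that EGF induces, and many genes of epithelial adhesion, the actin cytoskeleton and the extracellular matrix.

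At the Cdkn2 locus the signal of neighbouring genes moved in opposite directions, and the array probes that measured it are shown for that reason, 5′ to 3′ on mm9, from Mtap on the proximal side to Dmrta1 on the distal side. The first 30 of the 60 bases of each probe are printed, with no letters capitalised because the whole probe is the measured sequence, and the positions are those of the whole probe.
Mtap, chr4:88826213-88826272, plus strand: gccggtgtttaatgcaagccagtgtgactc
Cdkn2a, probe 1, chr4:88920405-88920464, minus strand: ggcatgagaaactgagcgaaggcggccgcg
Cdkn2a, probe 2, chr4:88920543-88920602, minus strand: cttctagcgatgctagcgtgtctagcatgt
Cdkn2b, probe 1, chr4:88952276-88952335, minus strand: ccagtgatgaattgtagtggtagcaggtta
Cdkn2b, probe 2, chr4:88952720-88952779, minus strand: ttgagcctcaccttgaagccaaggggatca
Dmrta1, chr4:89360601-89360660, plus strand: tgagattaggctgattttgggtgatggaac

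Isg15 had the largest difference of the chromosome 4 genes bright on all 4 arrays, and its RefSeq promoter (GRCm38.p6, minus strand, 250 bases before to 50 after the start) is shown with the interferon response motif searched here in capitals. The motif was 2 copies of GAAA with any 2 bases between them, was looked for on both strands and may overlap itself.
Isg15 promoter, chr4:156200769-156201068: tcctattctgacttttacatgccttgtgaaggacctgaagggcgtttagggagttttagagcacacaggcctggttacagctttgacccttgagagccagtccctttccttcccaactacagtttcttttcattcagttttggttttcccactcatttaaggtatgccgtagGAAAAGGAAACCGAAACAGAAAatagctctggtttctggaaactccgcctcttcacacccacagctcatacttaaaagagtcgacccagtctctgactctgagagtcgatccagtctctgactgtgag
It held 3 overlapping matches. Of all 32851 promoters of this length, 1131 (3.44%) held at least 1 match. Among the 817 measured chromosome 4 genes with a promoter in the table, 32 (3.92%) held one. Of these 32, 15 were higher and 2 lower in Pak1-/- cells, with a median log2 difference of 0.26. Taken by their brightest probe, 1373 of the 1374 genes by symbol entered this comparison. Of the 1373, 42.6% were higher and 17% lower, with a median of 0.19. These counts are a description, and no difference between genes with and without a match was tested. The 32 genes with a match included Ddx58, the RNA sensor RIG-I (2.11), and the type I interferon genes Ifna1 (0.07, adjusted p = 0.57) and Ifna5 (0.01, adjusted p = 0.92). A match describes the letters only and shows no binding.

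Over the whole chromosome, the transcripts leaned towards higher values in Pak1-/- cells. The median log2 difference, always given as Pak1-/- minus Pak1+/+, was 0.22 over the 1767 probes, with quartiles at −0.14 and 0.69, where all 27229 probes had a median of −0.05. With no filter on brightness, which admits probes at background, the chromosome 4 median was 0.10. At an adjusted p under 0.05, 782 probes (44.3%) were higher in Pak1-/- cells, where 23.3% of all probes were, and 291 (16.5%) were lower, where 28.6% of all probes were. With a change of at least 2-fold as well, 227 (12.8%) were higher, where 6.94% of all probes were, and 57 (3.23%) were lower, where 5.6% of all probes were. The log2 difference was above 0 for 1149 probes (65.0%), against 45% of all probes. The values of the 2 groups did not overlap for 1430 probes (80.9%), close to the 78.2% of all probes. The replicates gave like shifts: the median deviation of the chromosome 4 probes from their 4-array mean was 0.11 and 0.10 on the Pak1-/- arrays, and −0.11 and −0.13 on the Pak1+/+ arrays, the opposite signs of the 2 genotypes following from the centring. Chromosome 4 had the highest median of the 20 chromosomes, just above chromosome 16 (0.20) and chromosome 3 (0.19).

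The shift was not even along the chromosome. In 10 Mb bins counted from the proximal end, the first 4 bins had medians below 0 and the other 12 above 0. The median was −0.18 in the bin at 0 to 10 Mb (37 probes), −0.28 at 10 to 20 Mb (59 probes), −0.35 at 20 to 30 Mb (30 probes) and −0.43 at 30 to 40 Mb (51 probes). Without Pak1+/+ replicate 1 the median at 20 to 30 Mb was −0.20, and the order among these 4 bins changed with it. With 1 probe per gene the median at 20 to 30 Mb was −0.16. In the deposited log2 table the median at 10 to 20 Mb was −0.08, and the lowest bin was that at 20 to 30 Mb (−0.45). At 40 to 50 Mb the median was 0.14 (207 probes), and over the next 3 bins it was 0.38, 0.29 (0.45 without Pak1+/+ replicate 2) and 0.23, the last of these resting on 14 probes at 70 to 80 Mb. The Cdkn2 locus bin at 80 to 90 Mb stood at 0.21 (78 probes), and the 2 bins after it at 0.39 and 0.41. At 110 to 120 Mb the median was 0.18 (171 probes). The highest value of the chromosome was 0.48 at 120 to 130 Mb (209 probes), and the bin after it had 0.38 (256 probes). The highest bin was instead that at 60 to 70 Mb in the deposited log2 table (0.68) and that at 100 to 110 Mb with the processed signal (0.53). The 2 most distal bins were closer to 0, at 0.08 (196 probes) and 0.16 (142 probes).

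**Figure D1:**
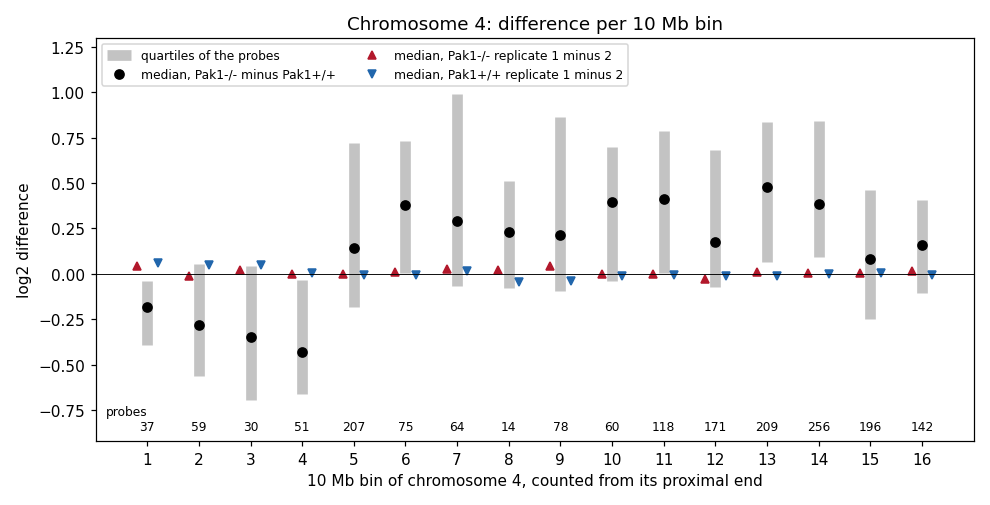
Median log2 difference (Pak1-/- minus Pak1+/+, black) of the chromosome 4 probes in each 10 Mb bin, with the quartiles of the probes (grey) and the median difference between the 2 replicates of each genotype (red and blue triangles); the number of probes stands below each bin. The first 4 bins lie below 0, the other 12 above it, and the replicate differences stay within 0.0621 of 0.

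The bins differed by far more than replicates did. The 16 bin medians spanned 0.91 and had an SD of 0.29. The same bin medians taken between the 2 Pak1-/- replicates had an SD of 0.0182 and were at most 0.0446 in size, and between the 2 Pak1+/+ replicates an SD of 0.0292 and at most 0.0621. In all 16 bins both arrays of one genotype lay on one side of both arrays of the other, the Pak1-/- arrays lower in the first 4 bins and higher in the rest. At 30 to 40 Mb, for example, the median deviation from the 4-array mean was −0.19 and −0.20 on the Pak1-/- arrays, and 0.22 and 0.18 on the Pak1+/+ arrays. At 120 to 130 Mb it was 0.23 and 0.22 on the Pak1-/- arrays, and −0.23 and −0.25 on the Pak1+/+ arrays. Separation of the genotypes was common over the array, where 78.2% of all probes did not overlap between the groups. The bins of other chromosomes were not counted in this way. The separation in all 16 bins is therefore not shown to be particular to chromosome 4.

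**Figure D2:**
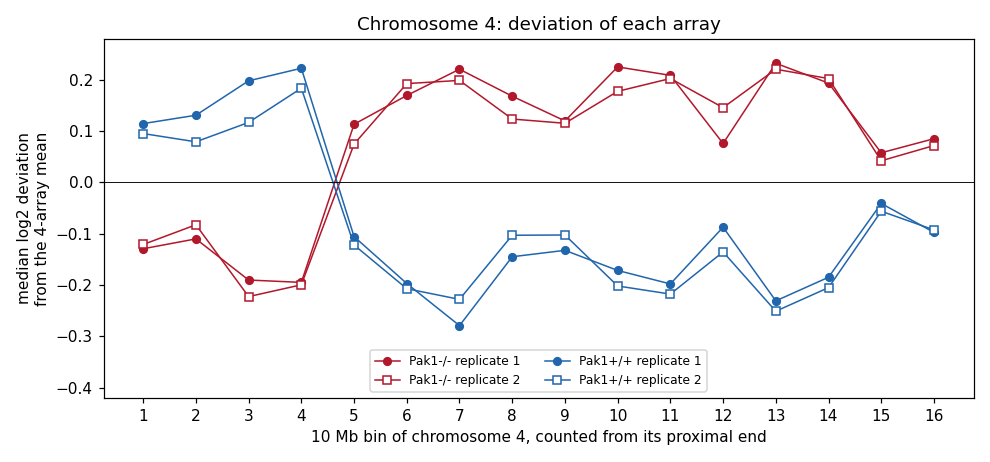
Median log2 deviation of the chromosome 4 probes from their 4-array mean in each 10 Mb bin, drawn for each array (red Pak1-/-, blue Pak1+/+; filled circles replicate 1, open squares replicate 2). The 2 genotypes change places between the bins at 30 to 40 Mb and 40 to 50 Mb, and replicates follow each other along the whole chromosome.

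Taken as 2 segments, split after the bins had been seen, the first 40 Mb held 177 probes and the remainder 1590. The counts of this paragraph are to be read against all 27229 probes, of which 23.3% were higher and 28.6% lower. In the proximal segment the median was −0.30, with 17 probes higher (9.6%) and 85 lower (48.0%). In the distal segment it was 0.28, with 765 higher (48.1%) and 206 lower (13.0%). The proximal minus distal difference was −0.58, and −0.24 with no filter. A value above 0 was found for 27.1% of the proximal probes and 69.2% of the distal ones. The median level of the probes was 10.3 in both segments, while the median GC content of the probes was 40% in the proximal and 43.3% in the distal segment; the part of base composition was not tested. Within the distal segment, the 1122 probes from 45 to 140 Mb had a median of 0.36, with 599 higher (53.4%) and 105 lower (9.36%). The 338 probes beyond 140 Mb had a median of 0.12, with 125 higher (37%) and 66 lower (19.5%). The 130 probes from 40 to 45 Mb, where the sign changed, had a median of −0.035. Beyond 45 Mb, in steps of 5 Mb, the median was lowest at 145 to 150 Mb. There it was 0.05, with 38 of 114 probes higher (33.3%) and 33 lower (29%). The share higher was still above the 23.3% of all probes, and the share lower was close to the 28.6% of all probes.

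The contrast between the segments was larger among bright probes. The part in this of background signal, and of the offset of 50 added to the intensities, was not tested. Without that offset the proximal minus distal difference over all levels was −0.66, against −0.58 with it. With the chromosome 4 probes split by mean log2 intensity into 3 classes of equal size, the median in the dimmest class (6.51 to 8.72) was −0.18 in the proximal segment and 0.10 in the distal segment. In the middle class it was −0.29 and 0.37, and in the brightest class (11.68 to 18.95) −0.38 and 0.41. The 2 segments lay on opposite sides of 0 in each of the 3 classes. The split was made after the bin medians of these same probes had been seen, so opposite signs follow in part from that choice.

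Other chromosomes had no such range. Over all chromosomes, 246 bins of 10 Mb held at least 30 probes, 15 of them on chromosome 4. The 5 highest medians of the 246 were all on chromosome 4, and 2 of the 10 lowest were too, with the bin at 30 to 40 Mb holding rank 3 from the lowest. The 231 bins of the other chromosomes ran from −0.51 to 0.37, with quartiles at −0.17 and −0.0021. The widest range between the bins of 1 chromosome was that of chromosome 4 (0.91), followed by chromosome 2 (0.56) and chromosome 12 (0.48). Chromosomes 16 and 3, with medians close to that of chromosome 4, had ranges of 0.24 and 0.25, and all their bins lay above 0.

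**Figure D3:**
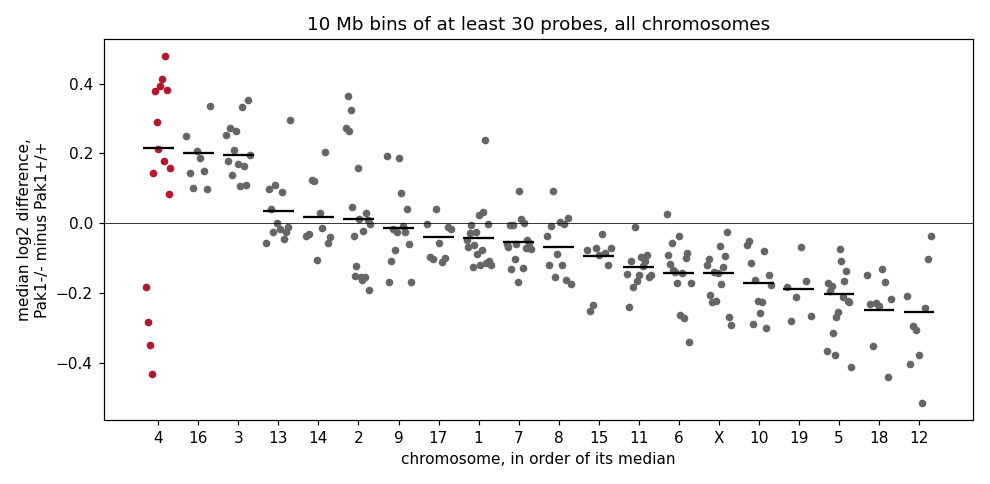
Median log2 difference (Pak1-/- minus Pak1+/+) of each 10 Mb bin with at least 30 probes, by chromosome in order of the chromosome's median (black line), bins running from proximal to distal within each column. Chromosome 4 (red) holds the 5 highest bins and spans 0.91, more than any of the other chromosomes.

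The change of sign fell within a short stretch. In steps of 1 Mb the median was −0.52 at 40 to 41 Mb (26 probes), −0.26 at 41 to 42 Mb (33 probes), −0.09 at 42 to 43 Mb (14 probes) and 0.55 at 43 to 44 Mb (44 probes). Before 40 Mb, the sparse steps at 35 to 36 Mb (0.25, 3 probes) and 37 to 38 Mb (0.03, 1 probe) also lay above 0. The 8 probes from 35 to 40 Mb had a median of −0.06. Taking 1 probe per gene and summing the deviations from the chromosome median (held within 1 log2 unit) along the chromosome, the sum was lowest at Phf24 (42954419 to 42954478; −0.03, adjusted p = 0.74). The next gene measured was Dnajb5 (42971494 to 42971553), which encodes a J-domain cochaperone. It read 11.46 and 11.32 on the Pak1-/- arrays and 10.57 and 10.46 on the Pak1+/+ arrays, a log2 difference of 0.87 (adjusted p = 0.0019). Of the 52 genes from 40 Mb up to the change, 4 were higher and 25 lower, with a median of −0.26. Of the 69 genes from the change to 46 Mb, 39 were higher and 4 lower, with a median of 0.44. Over the entire chromosome, the 195 genes before the change had a median of −0.28 and the 1178 after it 0.28. Among all 27229 probes, 23.3% were higher and 28.6% lower. The point of the change was placed by these same values. A contrast between its sides therefore follows in part from that choice, and the counts and medians are a description.

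The following genes are examples from the 2 sides of this point. On the proximal side Nfx1, a zinc finger transcription factor, read 12.02 and 12.07 on the Pak1-/- arrays and 13.20 and 13.14 on the Pak1+/+ arrays (−1.13, adjusted p = 0.00057). Bag1, an Hsp70 cochaperone (−0.68), B4galt1, a galactosyltransferase (−0.80), and Smu1, a splicing factor (−0.63), were lower as well, with adjusted p of 0.0034, 0.0011 and 0.0022. Some genes of the same stretch departed from it. Ddx58 rose, from 13.34 and 13.50 on the Pak1+/+ arrays to 15.55 and 15.50 on the Pak1-/- arrays (2.11, adjusted p = 0.0002), and so did Myorg, a glycosidase not well above background on both Pak1+/+ arrays, which was at least 6.27-fold higher (adjusted p = 0.00015, and 0.00045 fitted with no filter on brightness). On the distal side Vcp, the AAA ATPase of protein quality control, read 16.07 and 16.05 on the Pak1-/- arrays and 15.02 and 15.14 on the Pak1+/+ arrays (0.98, adjusted p = 0.001). Tln1, the integrin-linking talin (1.45), Clta, a clathrin light chain (0.94), Creb3 (0.95) and the carbonic anhydrase Car9 (2.22) were higher too, with adjusted p of 0.0012, 0.00077, 0.001 and 0.00076. The decreases on that side included Gm829, not well above background on both Pak1-/- arrays and at least 1.94-fold lower (adjusted p = 0.0039, and 0.0083 with no filter), and Reck, an inhibitor of matrix metalloproteinases (−0.34, adjusted p = 0.015). The genes of this paragraph were chosen after their values were seen.

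**Figure D4:**
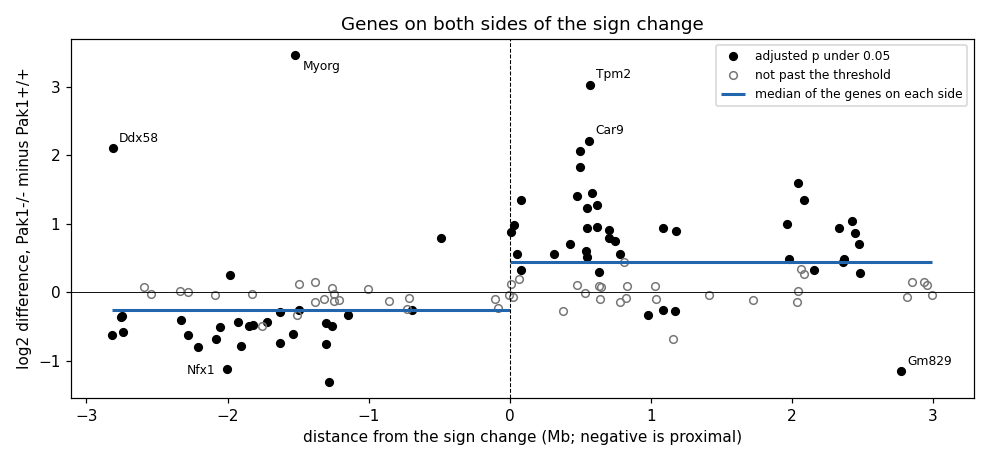
Log2 difference (Pak1-/- minus Pak1+/+) of each gene within about 3 Mb of the sign change, 1 probe per gene, against its distance from the midpoint between Phf24 and Dnajb5; filled points have an adjusted p under 0.05, and the blue lines are the medians of the 52 genes before (−0.26) and the 69 genes after it (0.44). Ddx58 and Myorg stand out above the proximal genes. Myorg and Gm829, each near background in 1 genotype, are drawn at their measured differences. The point of the change was placed by these same values.

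The genes named here for the proximal segment are the largest increase and decrease of each bin. The largest decrease was that of Epha7, an Eph receptor tyrosine kinase at 20 to 30 Mb. It read 9.98 and 10.15 on the Pak1-/- arrays and 13.61 and 13.29 on the Pak1+/+ arrays (log2 difference −3.38, SE 0.136, adjusted p = 0.0002), and its other 2 probes gave the same direction. Chchd7, a small mitochondrial protein gene at 0 to 10 Mb, differed by −1.30 (adjusted p = 0.00069), the transcript NAP096516-001 at 10 to 20 Mb by −1.65 (adjusted p = 0.0011), and Mdn1, an ATPase of large ribosomal subunit maturation at 30 to 40 Mb, by −1.17 (adjusted p = 0.00081). The increases included Fam110b, a centrosomal protein gene at 0 to 10 Mb, with 9.90 and 9.57 on the Pak1-/- arrays and 7.98 and 7.83 on the Pak1+/+ arrays (1.83, adjusted p = 0.00088). Trp53inp1, a p53-induced stress gene at 10 to 20 Mb, was higher by 1.40 (adjusted p = 0.00053). Tstd3 (0.94, adjusted p = 0.0009) and C9orf72, an endosomal trafficking gene (0.74, adjusted p = 0.0028), were the largest increases of the other 2 bins among probes bright on all 4 arrays, both under 2-fold. Cnr1, the cannabinoid receptor at 30 to 40 Mb, was bright in Pak1-/- cells alone, with 11.84 and 11.41 against 6.27 and 6.39 not well above background on both Pak1+/+ arrays. It was at least 27.1-fold higher, a bound set by the dimmest signal still well above background.

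From 40 to 80 Mb the largest changes were increases. Tmeff1, a transmembrane protein with EGF-like and follistatin-like domains, read 12.47 and 12.38 on the Pak1-/- arrays and 7.23 and 7.30 on the Pak1+/+ arrays (5.16, SE 0.0761, adjusted p = 4.2e-05). Abca1, the exporter of cellular cholesterol, read 12.57 and 12.24 against 7.87 and 8.37 (4.29, SE 0.209, adjusted p = 0.0003). Zfp618, a zinc finger gene, gave 4.55 by its brightest probe (adjusted p = 4.2e-05) and 0.56 by its other probe (adjusted p = 0.003), so its probes shared the direction and not the size. Megf9, the largest increase of the sparse bin at 70 to 80 Mb, gave 0.80 (adjusted p = 0.0012). Of the 10 Mb bins here, the one at 60 to 70 Mb held the largest decrease, that of Orm1, the acute-phase protein orosomucoid, at 8.54 and 8.67 against 10.85 and 10.95 (−2.30, adjusted p = 0.00016). The largest decreases of the bins at 50 to 60 and 70 to 80 Mb were those of 2 transcripts with no gene symbol, −0.66 (adjusted p = 0.0022) and −0.46 (adjusted p = 0.0085).

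The Cdkn2 locus, at 88.9 Mb within the distal segment, held the largest decreases of the chromosome. Cdkn2b read 5.72 and 5.76 on the Pak1-/- arrays by its brighter probe and 13.11 and 13.28 on the Pak1+/+ arrays. Cdkn2a read 6.08 and 6.21 against 11.20 and 11.44. For both genes both probes were not well above background on either Pak1-/- array and were well above it on both Pak1+/+ arrays, so the folds are bounds. Cdkn2b was at least 95.5-fold lower by the first probe shown above and at least 28.8-fold lower by the second (adjusted p = 4.2e-05 and 4.5e-05). Cdkn2a was at least 26-fold lower by its first probe and at least 2.95-fold by its second (adjusted p = 6.2e-05 and 0.00032). The 4 probes were members only through the Pak1+/+ arrays, and the filter on all 4 arrays leaves them out. Fitted over all probes with no filter on brightness, their adjusted p was 0.00016 and 0.00017 for Cdkn2b, and 0.00022 and 0.0009 for Cdkn2a.

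The genes on either side of it did not share this loss of signal. Mtap, the methionine salvage enzyme whose probe ended 94.1 kb before that of Cdkn2a, read 12.96 and 12.91 on the Pak1-/- arrays and 11.17 and 11.14 on the Pak1+/+ arrays (1.78, SE 0.0694, adjusted p = 0.00018). Farther on the proximal side Mllt3, a subunit of the super elongation complex, was higher by 1.43 (adjusted p = 0.00044) and Klhl9, an adaptor of a cullin ubiquitin ligase, by 0.66 (adjusted p = 0.0039). Focad differed by 0.07 (adjusted p = 0.53). On the distal side Dmrta1, a DM domain gene whose probe began 408 kb after that of Cdkn2b, was bright in Pak1-/- cells alone, at 7.18 and 7.34 against 6.27 and 6.63, at least 1.31-fold higher (adjusted p = 0.01, 0.02 with no filter and 0.061 without Pak1-/- replicate 2). Elavl2, an RNA-binding protein gene, read 9.28 and 6.44 against 6.11 and 8.59, so its replicates disagreed in both groups. Of the type I interferon genes of the cluster on the list, Ifna4 and Ifne were not bright enough to be members, and 8 were measured: Ifnb1, Ifna1, Ifna2, Ifna5, Ifna11, Ifna12, Ifna13 and Ifnab. None of the 8 passed the threshold by limma, with adjusted p from 0.056 to 0.92, and 2 (Ifna2 and Ifna13) had an unadjusted p under 0.05. Some passed under another setting: Ifna2 with cyclic loess (adjusted p = 0.046), no offset (0.034) or the filter on all 4 arrays (0.047), Ifnb1 (1.31, adjusted p = 0.0027) and Ifna11 (−1.44, adjusted p = 0.0043) without Pak1+/+ replicate 1, and Ifna12 (−0.71, adjusted p = 0.014) without Pak1-/- replicate 2. Their sequences are alike, so a probe may take up signal from more than 1 of them. In all, 16 of the 18 genes on the locus list were measured, 4 higher, 2 lower and 10 not past the threshold, with a median of 0.14, where 42.6% of all chromosome 4 genes were higher and 17% lower.

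**Figure D5:**
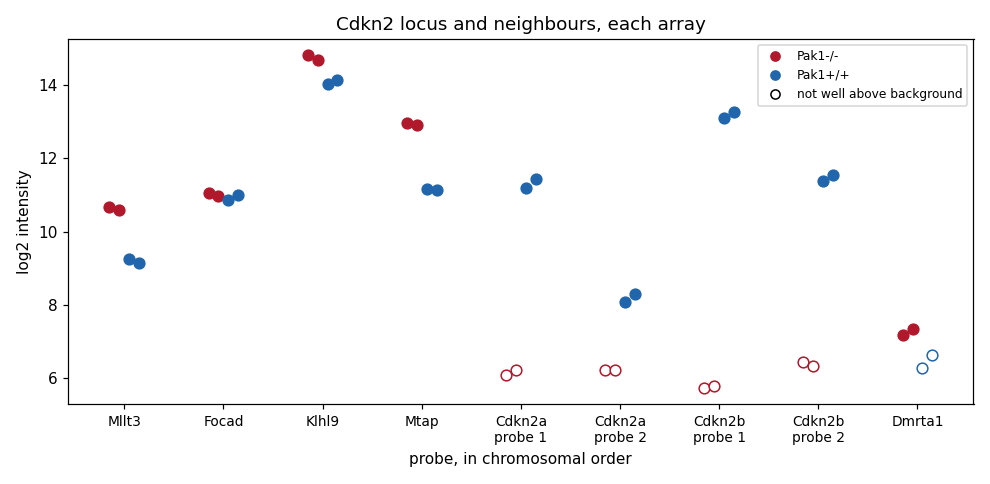
Normalized log2 intensity on each of the 4 arrays (red Pak1-/-, blue Pak1+/+) for 9 probes of the Cdkn2 locus and its neighbours in chromosomal order; open symbols were not well above background. All 4 probes of Cdkn2a and Cdkn2b are open on the Pak1-/- arrays and filled on the Pak1+/+ arrays, while Mtap, Klhl9 and Mllt3 are higher on the Pak1-/- arrays; levels are to be compared within a probe.

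Between 40 and 140 Mb, increases of at least 2-fold outnumbered decreases, with 194 of 1252 probes against 22. Over all 27229 probes, 1889 (6.94%) were higher and 1524 (5.6%) lower by at least 2-fold. Jun read 15.99 and 15.49 on the Pak1-/- arrays and 13.33 and 13.14 on the Pak1+/+ arrays (2.51, SE 0.187, adjusted p = 0.00089). Sdc3, a syndecan of the cell surface, read 13.14 and 12.87 against 9.63 and 9.89 (3.25, SE 0.139, adjusted p = 0.00023). Trabd2b, a membrane metalloprotease that cleaves Wnt ligands, was higher by 2.48 (adjusted p = 0.00012) with its other 2 probes at 2.01 and 2.32. Lurap1l (2.39, adjusted p = 0.00039) and Fyb2 (3.38, adjusted p = 0.0037; 3.83 by its other probe) were the largest increases of their bins. At 120 to 130 Mb the largest increase was that of the transcript NAP111445-1, which read 14.92 and 14.86 against 9.66 and 9.57 (5.28, adjusted p = 4.2e-05), and the largest decrease that of Gm10573, at 7.48 and 7.64 against 10.79 and 10.95 (−3.31, adjusted p = 0.00011). Gm5860, the largest decrease at 80 to 90 Mb among probes bright on all 4 arrays, differed by −2.15 (adjusted p = 0.013). Decreases in the other bins included Tspan1, a tetraspanin, at 14.34 and 14.64 against 16.77 and 16.69 (−2.24, adjusted p = 0.00041), and Plpp3, a lipid phosphate phosphatase (−1.30, adjusted p = 0.0006). Ptpru, a receptor tyrosine phosphatase, differed by −1.06 (adjusted p = 0.0007) and Gm12693 by −0.82 (adjusted p = 0.0028). From 140 Mb to the end, where the median was smaller, single genes still had large differences. Rbp7, a retinoid-binding protein gene, read 12.86 and 13.50 against 8.61 and 8.31 (4.72, SE 0.241, adjusted p = 0.00034). Isg15 read 18.24 and 18.14 against 11.81 and 12.20 (6.18, SE 0.147, adjusted p = 7.2e-05), and 6.41 by its second probe. Fbxo2, an F-box protein that binds glycoproteins, read 8.46 and 8.53 against 11.04 and 10.80 (−2.43, adjusted p = 0.00023), and Plch2, a phospholipase C, 7.16 and 7.23 against 8.91 and 8.79 (−1.65, adjusted p = 0.00031).

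Some probes gave signal in 1 genotype alone. On chromosome 4, 83 probes (4.7%) were well above background on both Pak1-/- arrays and on neither Pak1+/+ array, where 3.57% of all probes were, and 15 (0.849%) were the reverse, where 0.76% of all probes were. The excess on the Pak1-/- side is thus one of the whole array. The brightness criterion admits such probes through their bright group, so these counts describe the selection too. Most were near background, with a median bound of 1.35-fold for the 83 and 2.21-fold for the 15. Bounds of 8-fold or more were found for 7 probes of the former kind and 3 of the latter, all 3 in Cdkn2a and Cdkn2b. By their brightest probe, the genes of the former kind were Cnr1, Fggy, a carbohydrate kinase (at least 17.7-fold), Zmym6, a zinc finger gene (at least 18.7-fold), Man1c1, a Golgi mannosidase (at least 16.9-fold), and LOC402769 (at least 13.5-fold). The replicates of LOC402769 were 11.64 and 9.79 in Pak1-/- cells.

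The gene lists read along the chromosome had the following make-up, a gene standing by its brightest probe. In the list of epithelial junction, cytoskeleton and matrix genes, 28 of 35 were measured, 20 were higher, 1 was lower and 7 did not pass, with a median of 0.89. Over the 1373 genes of the chromosome taken each by its brightest probe, 42.6% were higher and 17% lower, with a median of 0.19. The lists below are to be read against these shares. All 28 genes measured of this list lay beyond 40 Mb, as did those of the Cdkn2 locus and TNF receptor lists. Of the 1178 genes after the sign change, 48% were higher and 12.1% lower, with a median of 0.28. Tpm2, a tropomyosin, read 13.49 and 12.71 against 9.98 and 10.14 (3.04, adjusted p = 0.0013). Hspg2, the basement membrane proteoglycan perlecan, read 12.15 and 12.07 against 9.55 and 9.65, and Marcksl1, an actin-associated protein, 16.95 and 16.78 against 15.06 and 15.07. Alpl, the tissue-nonspecific alkaline phosphatase, read 14.21 and 13.98 against 11.37 and 11.42. In each of these genes both Pak1-/- values lay above both Pak1+/+ values. The 1 gene called lower, the collagen gene Col8a2, was lower by its brightest probe (−0.37, adjusted p = 0.043) and higher by its other (0.90, adjusted p = 0.0021), and the first call was lost in 8 alternative settings, with any 1 array left out among them (adjusted p from 0.054 to 0.17).

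Receptor and signalling genes had 26 of 33 measured, 15 higher, 5 lower and 6 not past the threshold, with a median of 0.30. Pik3r3, a regulatory subunit of PI 3-kinase, read 14.95 and 15.04 against 13.10 and 13.02 (1.94, adjusted p = 0.00019). Wnt4, a ligand of the mammary epithelium, read 8.37 and 8.34 against 6.46 and 6.41, the latter not well above background, and was at least 2.8-fold higher. Errfi1, a feedback inhibitor of the EGF receptor, read 15.95 and 15.24 against 14.14 and 13.89. Cdc42, a small GTPase that binds and activates PAK kinases, read 16.50 and 16.59 against 15.66 and 15.71. Epha7 was the largest decrease, and Prkaa2, a catalytic subunit of AMP-activated kinase, read 9.59 and 9.77 against 10.67 and 10.49. Of 31 transcription factor genes, 22 were measured, 11 higher, 2 lower and 9 not past the threshold, with a median of 0.29. After Jun, those higher included Klf4, a Kruppel-like factor (10.53 and 10.52 against 8.54 and 8.56), and Mycl, at least 3.3-fold higher (8.64 and 8.54 against 6.36 and 6.44, the latter not well above background). Id3, an inhibitor of bHLH factors, read 10.69 and 10.75 against 11.72 and 11.59 (−0.93, adjusted p = 0.0013).

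Of 32 cell cycle and DNA repair genes on the list, 30 were measured, 10 higher, 5 lower and 15 not past the threshold, with a median of 0.18, close to that of the chromosome. Without Pak1+/+ replicate 1 the counts were 6 higher and 2 lower. Xpa, a damage-binding protein of nucleotide excision repair, read 13.32 and 13.33 against 12.11 and 12.14 (1.20, adjusted p = 0.00043). Fancg, of the Fanconi anemia core complex, read 9.21 and 9.45 against 8.84 and 8.71 (0.56, adjusted p = 0.014). Faap20, a partner of that complex named 2610002J02Rik on the array, read 13.83 and 13.95 against 13.50 and 13.60 (0.34, limma adjusted p = 0.024). The other probe of Faap20 did not pass the threshold (0.18, limma adjusted p = 0.15). Rad54b, a helicase-like factor of homologous recombination, was lower, at 10.76 and 10.84 against 12.37 and 12.31 (−1.54, adjusted p = 0.00029). The members of this list within the first 40 Mb were Rad54b, Nbn, of the MRN break-sensing complex (9.98 and 9.95 against 10.39 and 10.29), and Ccnc, cyclin C (9.43 and 9.54 against 10.12 and 10.16), and all 3 were lower.

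Interferon and innate immune genes had 16 of 17 measured, 7 higher, 1 lower and 8 not past the threshold, with a median of 0.13, so the share of genes higher was close to that of the chromosome. Besides Isg15 and Ddx58 the genes higher included Jak1, a kinase of cytokine receptors (14.37 and 14.32 against 12.92 and 13.08), and Tlr4, a receptor for bacterial lipopolysaccharide (11.34 and 11.53 against 10.56 and 10.54). Ripk2, a kinase downstream of NOD receptors, was higher although it lies in the proximal segment (9.79 and 9.87 against 8.99 and 8.97). The gene called lower was Lck, a Src family kinase (8.36 and 8.28 against 10.49 and 10.42; −2.14, adjusted p = 0.00015). Of the 7 TNF receptor genes, 6 were measured, of which 2 were higher, 3 did not pass the threshold and 1 (Tnfrsf9) had probes that disagreed, with a median of 0.02 by the brightest probes. Tnfrsf25, a death receptor, read 9.54 and 9.19 against 7.92 and 7.84 (1.49, adjusted p = 0.0015) and Tnfrsf1b 11.88 and 11.88 against 11.01 and 10.87 (0.94, adjusted p = 0.0013). Tnfrsf4 (0.22, adjusted p = 0.1), Tnfrsf14 (−0.18, adjusted p = 0.51) and Tnfrsf18 (−0.24, adjusted p = 0.22) did not pass, but did with cyclic loess (Tnfrsf4, adjusted p = 0.047), without Pak1+/+ replicate 1 (Tnfrsf14, −0.48, adjusted p = 0.034) and without Pak1-/- replicate 2 (Tnfrsf18, −0.44, adjusted p = 0.025). The probes of Tnfrsf9 gave −0.44 by the brighter (adjusted p = 0.019; 0.069 and 0.071 without either Pak1+/+ array) and 1.14 by the dimmer (adjusted p = 0.00051), so no direction is given for it.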

How the data were processed

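Total RNA of 2 Pak1-/- and 2 Pak1+/+ samples had been labelled with Cy3 and hybridised to 1-colour Agilent mouse arrays designed on mm9. Per the file headers and the submitters' processing notes, the authors read spot intensity and background intensity with Agilent Feature Extraction 9.5, without normalization between arrays; their deposited log2 table, made with normexp and quantile normalization, served as an alternative. Here, spot intensities were corrected by normexp (offset 50), log2 transformed, quantile normalized over non-control spots and averaged per probe with limma 3.58.1 in R 4.3.3. Quantile normalization gives all arrays 1 distribution, so differences are relative to the other probes. Probes flagged well above background on 2 or more arrays were fitted with genotype alone (lmFit, eBayes; 2 residual and 2.62 prior degrees of freedom), with Benjamini-Hochberg adjustment over all 27229 and a threshold of 0.05. The arrays' number limits the precision: an exact permutation test of 2 against 2 cannot go below 0.3333.

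Of the 2405 chromosome 4 probes, 1678 took their gene symbol from RefSeq (GRCm38.p6) through a transcript accession and the others kept the array's name; 3 probes on chromosome 4 random contigs were left out. Where neither array of a group had a probe well above background, the fold is a bound, taken against the dimmest well above background signal of each array. Named genes were the largest increase and decrease of each bin and of each list, genes bright in 1 genotype with a bound of at least 8-fold, and all genes of the Cdkn2 locus and TNF receptor lists, of which 1 is not reported here; other list genes serve as examples and were chosen after their values were seen. The members, the lists and the rules were chosen with earlier results of these data known, and the split at 40 Mb and the sign change after seeing the bins. The series' design text gives 2 tumors per group, without naming the tumor of each sample. Alternatives covered normalization, background correction, filters, 1 probe per gene, saturated probes, thresholds, bin widths, each array left out and a replicate block.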

Additional observations from a re-analysis of the deposited data

How the results depend on the processing

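The first 4 bins lay below 0 and 4 of 16 bins in all under every normalization, filter, block and left-out array; the count was 9 of 32 with 5 Mb bins, 2 of 8 with 20 Mb bins and 5 of 17 with bins moved by 5 Mb. The chromosome median of 0.2159 and the proximal minus distal difference of −0.5779 kept their sign throughout. They were 0.1994 and −0.5618 with 75th percentile scaling, 0.2736 and −0.5658 with cyclic loess, 0.2621 and −0.6844 with the processed signal, 0.2484 and −0.6624 without an offset, 0.3183 and −0.6773 in the deposited log2 table, 0.2268 and −0.635 with the filter on all 4 arrays, 0.1003 and −0.2411 with no filter, which admits probes at background, and 0.1919 and −0.539 with 1 probe per gene. With each array left out they ran from 0.2195 to 0.2278 and from −0.5795 to −0.5527. By level, the proximal minus distal difference was −0.2819, −0.6596 and −0.7997 from the dimmest to the brightest of 3 classes of probes. The sign change stayed at 42.95 Mb but for 42.27 Mb without Pak1-/- replicate 2; the cause was not tested. At an adjusted p under 0.01, 173 probes were lower and 582 higher; of at least 2-fold, 57 and 227. Without each array in turn, 210 to 235 were lower and 631 to 701 higher. Replicate numbers gave no pairing of samples (r = −0.028 between the replicate differences of the 2 groups), and with the replicate block 272 were lower and 750 higher.

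Over the 65 genes that the naming rule picked and 14 settings, 863 of 892 values were alike in direction and call, 11 lost the call, 9 gained one and 9 reversed. The reversals came with 1 array left out and in genes not past the threshold. The values with each array left out ran from −0.0247 to 0.17 for Ifna1, from −0.0684 to 0.0911 for Ifna5, from −1.44 to 0.0964 for Ifna11, from −0.712 to 0.0111 for Ifna12, from −0.0304 to 0.169 for Ifnab, from −0.915 to 1.93 for Elavl2 and from −0.48 to 0.121 for Tnfrsf14. The second reversed value was −0.00611 for Ifnab and −0.733 for Elavl2. Col8a2 lost its call in 8 settings, Tnfrsf9 without either Pak1+/+ array (adjusted p = 0.069 and 0.071) and Dmrta1 without Pak1-/- replicate 2 (0.061). Without Pak1+/+ replicate 1, the cell cycle and DNA repair list had 6 genes higher and 2 lower. No depth is defined for arrays; signal over background limits the dim probes.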
